A study of Mus musculus with 17 samples.

Results

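The genes described here encode the respiratory chain of the mitochondrion, in RNA-seq counts of mesothelioma tumors that grew in the peritoneum of BALB/c mice after injection of AB12 cells, a murine mesothelioma line. Members were the protein coding genes of Gencode vM21 whose symbol starts with mt-, Nduf, Uqcr or Atp5, is Sdha, Sdhb, Sdhc or Sdhd, or starts with Cox and a digit from 4 to 8. This rule gave 107 of the 55450 genes in the count table, of which 13 lie on the mitochondrial chromosome and 94 in the nucleus. The 17 libraries fell into 5 groups: 3 untreated tumors were taken at d6, 5 at d10 and 3 at d14, and mice given anti CTLA-4 antibody, clone 9D9, gave 3 tumors at each of d10 and d14. All mice were female, 8 weeks old and injected with AB12 cells, and the antibody was given into the peritoneum at 200 µg per injection. The labels give 4 injections over 2 weeks as the general schedule, the study's text gives injections on d6 and d10 for the treated d14 tumors, and the schedule of the treated d10 tumors is not given in the sources used here. Per the study's methods the tumors of each group came from at least 3 independent mice, so the groups of 3 had 1 mouse per library, while for the 5 untreated d10 libraries this is not stated.

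The respiratory chain passes electrons from NADH through complex I, and from succinate through complex II, to ubiquinone, complex III, cytochrome c and complex IV, where oxygen is reduced. The proton gradient built by complexes I, III and IV drives complex V, the ATP synthase. Complex II is made wholly from nuclear genes, while the other complexes also need subunits that are transcribed and translated inside the mitochondrion. Nuclear genes of the chain are known targets of the transcription factor NRF1, a regulator of mitochondrial biogenesis.

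Total counts per library lay between 46371577 and 96759833. Among the 8 mesothelioma and mesothelium markers 7 averaged at least 1 CPM (read counts scaled to library size) in every group, including mesothelin, and Pdpn was at or near 0. The untreated d10 libraries fell into 2 parts that the labels do not name. In replicates 1 to 3 mt-Co1 took 28.7% to 33.7% of the counts on the 13 mitochondrial members, within or near the 29.6% to 30.8% of the d6 libraries, whereas in replicates 4 and 5 it took 48.8% and 50.6%, within or near the 45.5% to 52.0% of all d14 and treated libraries. The sequencing differed between libraries: paired reads of 75 or 100 bases came from different instruments. Which library had which is not given in the sources used here. Per its methods the study removed genes with a batch effect between sequencing projects, a step not taken here. Below, library kind means only a low or a high share of mt-Co1, a grouping that the labels do not give. Whether it goes with read length or instrument was not tested. Libraries of the high kind were not alike in every respect. The 13 members held 1.05% to 1.27% of counts at untreated d14 and 0.771% and 0.815% in d10 replicates 4 and 5. All d6 libraries were of the low kind and all d14 libraries of the high kind. Day and library kind therefore cannot be told apart between d6 and d14, and every comparison with d10 is given below for both parts.

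Of the mitochondrial genes, 5 had almost no counts, and these 5 also shared nearly all of their sequence with annotated nuclear genes. A stretch of the mitochondrial chromosome from mt-Co1 to mt-Nd4 has near-identical copies in the nucleus, annotated as 7 genes on chromosome 1 (GRCm38, 24611535 to 24616197, minus strand). Each mitochondrial transcript was split into all its 75-base windows, and the share that also occurs in a transcript of a nuclear gene was counted. The share was 99.5% for mt-Co2, 99.5% for mt-Atp6, 99.9% for mt-Co3, 97.8% for mt-Nd3 and 98.7% for mt-Nd4l. It was 61.5% for mt-Nd4, 39.8% for mt-Co1, 5.71% for mt-Nd2 and 1.66% for mt-Nd5, and no window of mt-Nd1, mt-Nd6, mt-Cytb or mt-Atp8 was found. Only annotated transcripts were searched, and mt-Atp8 lies between mt-Co2 and mt-Atp6, whose copies are separated on chromosome 1 by an interval with no annotated transcript, so a nuclear copy of mt-Atp8 was not tested for. Only uniquely mapped reads had been counted. Stretches of 3 genes from the Gencode vM21 transcripts, with bases that lie in a shared window in capitals, show a gene that is shared from its first base (mt-Nd4l, bases 1 to 120), a gene in which the identity ends (mt-Nd4, bases 821 to 940) and a gene with none (mt-Nd1, bases 1 to 120).
mt-Nd4l: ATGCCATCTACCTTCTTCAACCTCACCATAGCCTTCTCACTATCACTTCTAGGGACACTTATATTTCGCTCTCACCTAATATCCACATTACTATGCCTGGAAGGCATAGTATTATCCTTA
mt-Nd4: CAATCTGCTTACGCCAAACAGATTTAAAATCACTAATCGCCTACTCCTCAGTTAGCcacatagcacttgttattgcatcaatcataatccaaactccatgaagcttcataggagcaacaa
mt-Nd1: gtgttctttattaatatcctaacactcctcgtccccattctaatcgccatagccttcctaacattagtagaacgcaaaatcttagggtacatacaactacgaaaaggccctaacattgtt

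The level of the mitochondrial members differed along this split, and whether the shared sequence lowered the counts was not tested. Over the 17 libraries the 5 genes with over 90% of windows shared averaged between 0.0135 and 3.09 normalized CPM per kb of exon, while the other 8 averaged between 265 and 2965. Among the other 8 the level did not follow the share: mt-Nd6, with no shared window, averaged 265, and mt-Co1, with 39.8% shared, averaged 2965. mt-Co1, the catalytic core of complex IV, was the highest member at 2965 CPM per kb, followed by mt-Nd1 of complex I at 1916 and mt-Cytb of complex III at 1636. The highest nuclear members were Atp5b, the catalytic beta subunit of the ATP synthase, at 317 CPM per kb, and Cox8a at 304. mt-Nd4l reached 2 counts at most and was not tested. Values of mt-Co2, mt-Co3, mt-Atp6 and mt-Nd3 therefore rest on few reads and are named as such below. The nuclear copies themselves were low, and their summed level was 37.7, 25.9 and 8.86 normalized CPM in the 3 untreated d14 libraries against 4.39 to 7.83 at d6 and 5.24 to 7.79 in the treated d14 libraries.

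**Figure D1:**
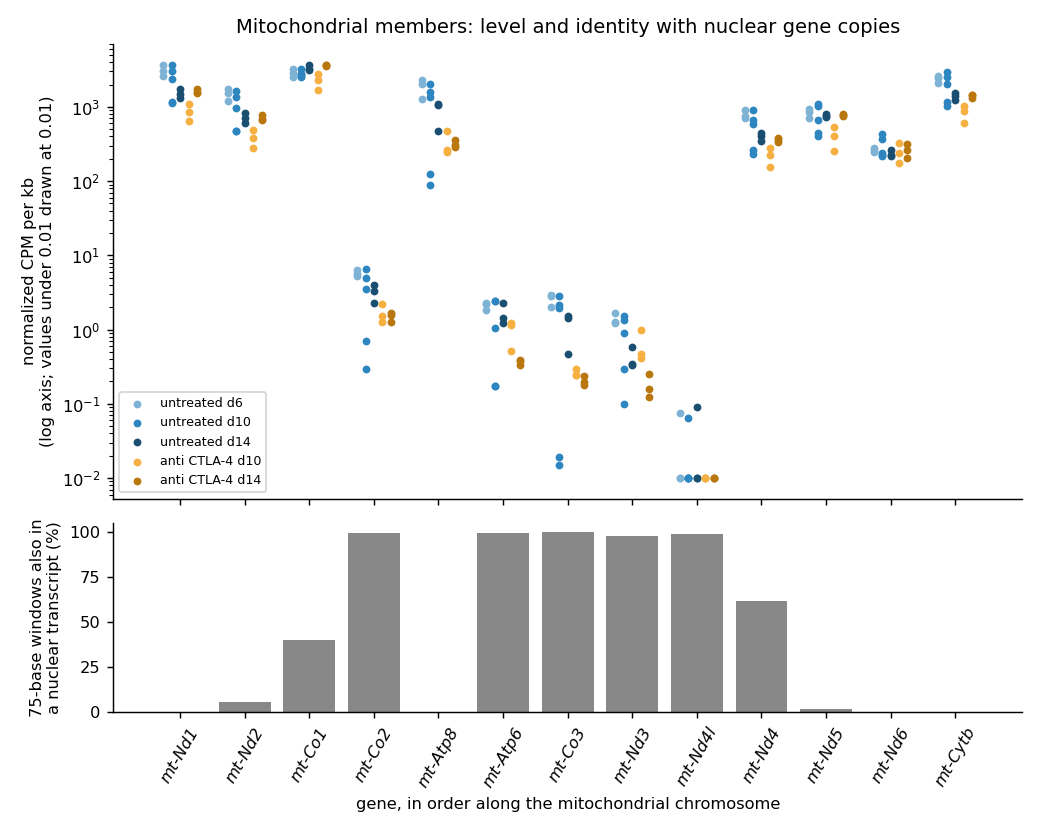
Upper panel: normalized CPM per kb of exon (log axis) of each of the 13 mitochondrial members in each library, colored by group. Lower panel: percent of 75-base windows of the transcript that also occur in a nuclear transcript. The 5 genes with 97.8% to 99.9% of windows shared lie at or below about 3.09 CPM per kb on average, and mt-Atp8 spreads widest among the other 8.

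Promoters of the nuclear members were searched for motifs, which the rule did not use. RefSeq (GRCm38.p6) gave a promoter, 250 bases before to 50 after the start, for 74 of the 94 nuclear members. The NRF1 motif, searched on both strands as GCGC, then any base, then TGCGC, occurred in 25.7% of them (19 genes) and in 5.13% of the promoters of all other genes. The YY1 motif AAGATGGC occurred in 13.5% of the members against 3.16%, the ETS motif CCGGAAGT in 6.76% against 4.3%, the ERR motif TCAAGGTCA in 2.7% against 0.46%, and the E-box CACGTG in 6.76% against 8.1%. Members described below were found both with and without an NRF1 match. Below, 170 bases before to 30 after the start are printed for 3 of them. Of these, 2 have an NRF1 match, in capitals, and 1 has no exact NRF1, ETS or YY1 match in its window. Near matches were not counted, and the printed Ndufb10 sequence holds stretches that differ from the NRF1 motif by a single letter. They lie on the minus strand at chr13:73328453-73328652 (Ndufs6), chr6:24527661-24527860 (Ndufa5) and chr17:24724394-24724593 (Ndufb10). Matches describe the letters only, and no binding was measured. The other genes were all 26951 with a promoter window and were not matched to the members for expression or base content.
Ndufs6: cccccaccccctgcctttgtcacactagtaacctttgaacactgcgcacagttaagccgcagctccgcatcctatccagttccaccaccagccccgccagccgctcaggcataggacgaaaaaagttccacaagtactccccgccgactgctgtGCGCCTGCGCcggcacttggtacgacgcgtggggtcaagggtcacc
Ndufa5: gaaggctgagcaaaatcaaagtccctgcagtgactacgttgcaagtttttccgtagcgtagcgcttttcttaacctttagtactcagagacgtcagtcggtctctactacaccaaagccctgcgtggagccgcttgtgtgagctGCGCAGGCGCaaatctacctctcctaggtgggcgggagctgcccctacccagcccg
Ndufb10: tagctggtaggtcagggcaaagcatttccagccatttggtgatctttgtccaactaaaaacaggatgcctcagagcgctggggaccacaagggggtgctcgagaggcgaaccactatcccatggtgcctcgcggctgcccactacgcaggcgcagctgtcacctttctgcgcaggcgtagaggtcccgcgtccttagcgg

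Of the 94 nuclear members 87 were tested in every comparison, and so were 12 of the 13 mitochondrial ones. The nuclear members that did not pass the filter on low counts were Cox7b2, Cox8b and Cox8c, which reached 3 counts at most, a second Atp5o row at 0, and Atp5a1, Uqcrc1 and Ndufs3, which reached 29, 5 and 1 counts. The last 3 encode core subunits of complexes V, III and I that every respiring cell uses, and they are only listed at about 0 here. Complex II genes were among the higher nuclear members per length, with a median of 55.5 CPM per kb over its 4 genes, next to 81.5 for complex III, 46.3 for complex IV, 36.4 for complex V, 32.8 for complex I and 7.7 for the 8 complex I assembly factors.

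The question of tumor growth was addressed by comparing untreated tumors across days. From d6 to d14 most nuclear members of the respiratory chain fell. With edgeR's quasi-likelihood test, 71 of the 87 nuclear members were lower at d14 at an adjusted p below 0.05 and none was higher, against 26.0% of all 17172 genes lower and 25.5% higher. At an unadjusted p below 0.05 there were 74 in either direction, and DESeq2 called 73 lower and none higher. The median log2 fold change was -0.57 over the nuclear members and 0.01 over all genes. All 3 d14 libraries lay below all 3 d6 libraries for 75 of the 87, against 31.6% of all genes. Past a 2-fold change were 8 nuclear members, against 8.81% of all genes lower by that rule.

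Complex I, the entry point for NADH, had the most calls, with 32 of 35 tested genes lower (median log2 fold change -0.68). Ndufs6, a subunit that carries zinc, read 66.8, 72.2 and 63.2 normalized CPM in the d6 libraries and 30.6, 30.5 and 26.2 at d14. The groups did not overlap, and the log2 fold change was -1.19 ± 0.10 (SE, adjusted p = 5.25e-05). Ndufa5 fell from 70.2, 69 and 63.8 to 34.6, 32.1 and 27 normalized CPM, a log2 fold change of -1.10 ± 0.11 (adjusted p = 0.000109). Ndufa12 read 60.6, 76.9 and 69.1 at d6 and 33.7, 33.1 and 29.6 at d14, with a log2 fold change of -1.08 ± 0.11 (adjusted p = 0.0001). Ndufb10, in the membrane arm, read 69, 71.8 and 71.7 at d6 and 38.1, 32.2 and 32.1 at d14, which is a log2 fold change of -1.04 ± 0.09. In each of these 4 genes every d14 library lay below every d6 library. Ndufs6, Ndufa5 and Ndufa12 were named for large fold changes. At untreated d10 Ndufs6 ran from 31.5 to 68.9 normalized CPM, Ndufa5 from 24.6 to 63.2 and Ndufa12 from 41.5 to 81.7. In Ndufs6 and Ndufa5 the lower part of d10 lay near the d14 level and the higher part near the d6 level. In Ndufa12 the higher part lay near the d6 level, but every d10 library lay above every d14 library. Ndufb10 ran from 55.6 to 78.2 at d10, above every d14 library. The part of library kind in these differences between d6 and d14 was not tested. Not every complex I gene passed the test: Ndufv1, the subunit that binds NADH, had a log2 fold change of -0.04 (adjusted p = 0.719) and Ndufs1 of -0.13 (adjusted p = 0.171), both chosen after their values were seen. Of the 8 assembly factors 4 were lower.

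The other complexes gave 7 of 7 genes lower for complex III (median -0.60), 12 of 17 for complex IV (median -0.58), 13 of 16 for complex V (median -0.47) and 3 of 4 for complex II (median -0.33). Within complex II, Sdhb, the iron-sulfur subunit, fell by 0.66 ± 0.08 on the log2 scale, from 142, 148 and 139 to 95.1, 85.7 and 86.5 normalized CPM. The other members of this enzyme moved less: Sdhd by -0.45, the flavoprotein Sdha by -0.22 and Sdhc by -0.19, the last not called (adjusted p = 0.0904).  Atp5o, in the stalk of the ATP synthase, had the largest fold change among the called nuclear members that averaged at least 10 CPM, -1.37 ± 0.15, but 47.9% of its exon bases also belong to another annotated gene, so its count is uncertain. Such overlap was above 10% for 13 of the 94 nuclear members, and 9 had more than 10% of their 75-base windows in a transcript from elsewhere in the genome, Ndufa12 with 14.6% among them.

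Isoforms of complex IV that depend on tissue or oxygen were low. Per length, Cox4i2, the isoform tied to low oxygen, made up 1.71% ± 0.135 (SD, n = 3) of the sum of Cox4i1 and Cox4i2 at d6 and 2.10% ± 0.211 at d14. Cox6a2, the heart and muscle form, read 1.62, 1.85 and 1.11 normalized CPM at d6 and 0.417, 0.232 and 0.383 at d14, a log2 fold change of -2.13 ± 0.33 (adjusted p = 0.000805) at a low level. Of the exon bases of Cox6a2, 10.3% also belong to another annotated gene. The 10 skeletal muscle markers summed to 2.25 to 3.08 CPM at d6 and 1.49 to 1.73 at d14. The part of muscle, of other tissues or of the shared bases in the Cox6a2 result was not tested. Cox7a1, another muscle form, did not pass the test (-0.03), while its common partner Cox7a2 fell by 0.47 and the common forms Cox6a1 and Cox4i1 by 0.83 and 0.75. Ndufa4l2, a relative of Ndufa4 known to be induced by hypoxia, did not pass the test from d6 to d14 (-0.10 ± 0.25), whereas Ndufa4 itself fell by 0.79.

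Beside these values, the 7 T cell markers summed to 54.3 to 59.9 CPM at d6 and 103 to 189 at d14. The 8 macrophage markers summed to 1379 to 1562 and 544 to 984, and the 6 fibroblast markers to 2773 to 2934 and 1636 to 2944. The 8 mesothelioma and mesothelium markers summed to 2564 to 3063 and 2765 to 2833, and the 6 cycling cell markers to 1586 to 1643 and 1597 to 1640.1. In bulk tumors fewer cells of a type and less RNA per cell cannot be told apart, and the part of these shifts in the fall was not tested.

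**Figure D2:**
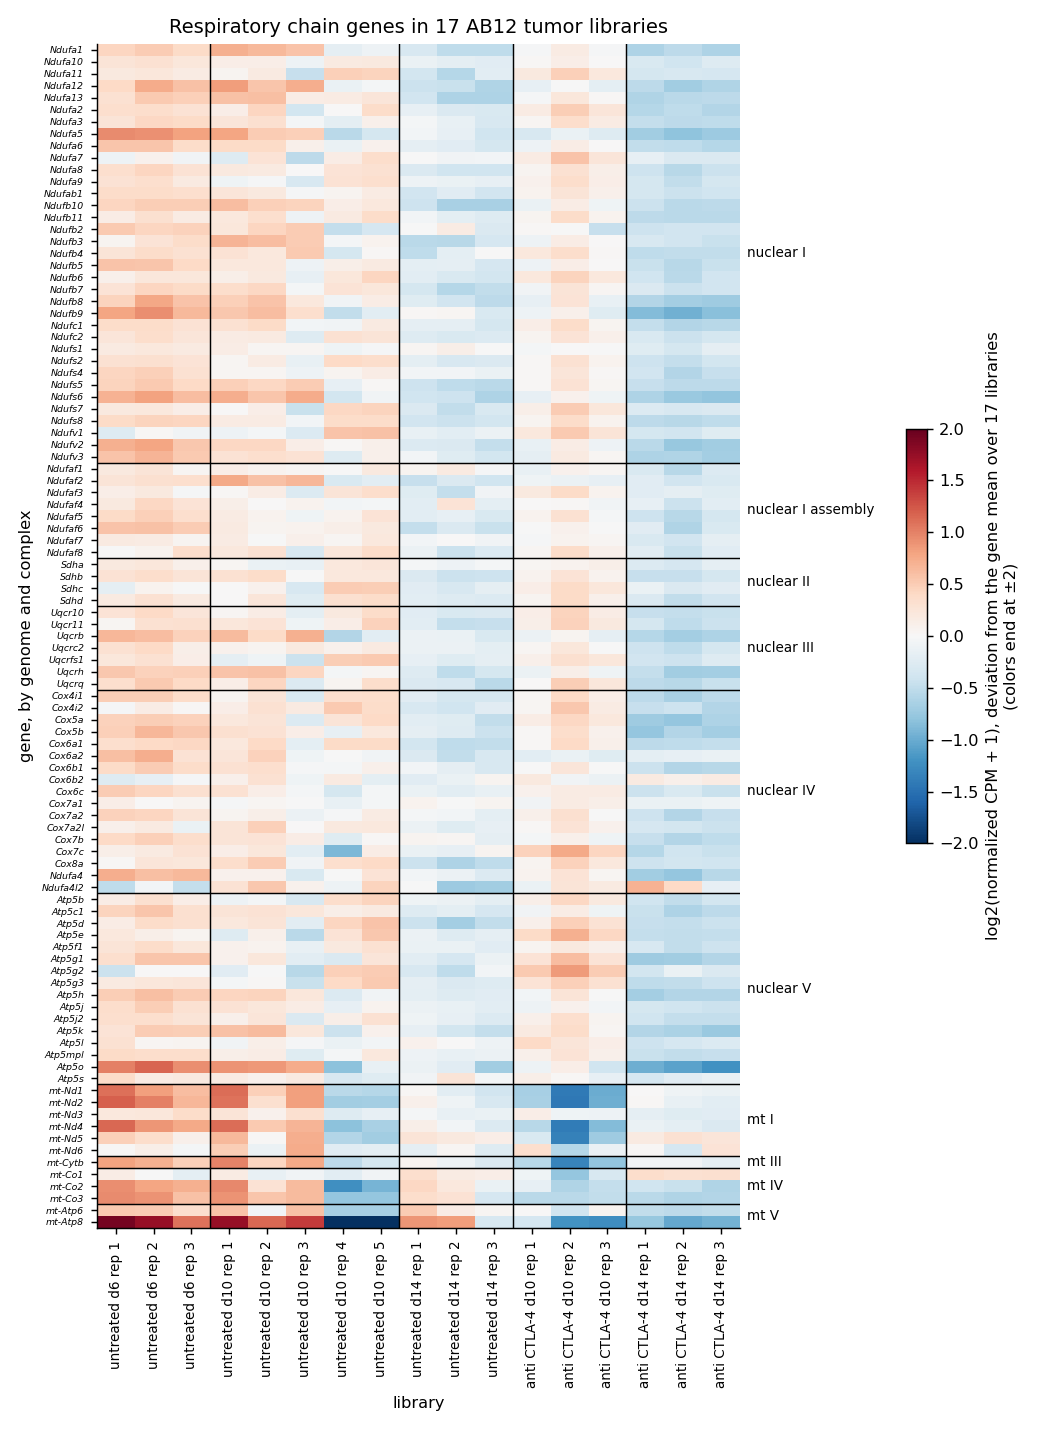
Each row is 1 of the 99 tested members, by genome and complex, and each column 1 library; the color is the deviation of log2(normalized CPM + 1) from the mean of that gene over the 17 libraries. The nuclear rows are mostly above their mean in the d6 libraries and below it in all d14 libraries, treated or not, and the mitochondrial rows change within the untreated d10 group between replicates 3 and 4.

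Mitochondrial members were lower at d14 than at d6, though not all of them, and here day and library kind cannot be told apart. Of 12 tested, 8 were lower and none higher, with mt-Nd1 at -1.02 ± 0.15, mt-Nd2 at -1.05 ± 0.16, mt-Nd4 at -0.97 ± 0.14 and mt-Cytb at -0.75 ± 0.12 (adjusted p from 0.00052 to 0.00114). The other 4 were mt-Atp8 at -1.04 and, on few reads, mt-Nd3, mt-Co3 and mt-Co2. By contrast, mt-Co1 had a log2 fold change of 0.25 ± 0.12 (adjusted p = 0.103), mt-Nd5 of -0.10 and mt-Nd6 of -0.14. The parts of the untreated d10 group, given below, differed by more than d14 and d6 did in mt-Nd1, mt-Nd2 and mt-Cytb. The part of library kind in the fall was not tested. mt-Nd1 read 3501, 2886 and 2484 normalized CPM at d6 and 1663, 1411 and 1252 at d14, and mt-Co1 read 4985, 4453 and 3914 against 5707, 5049.8 and 4911. As a whole, the 13 genes held 1.42% ± 0.197 (SD, n = 3) of all counts at d6 and 1.16% ± 0.113 at d14, and the ranges overlapped. The 94 nuclear members held 0.952% ± 0.0227 at d6 and 0.694% ± 0.0256 at d14, with no overlap.

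How the nuclear members stood at d10 depended on which d10 libraries were used. Between d6 and d10, 6 of 87 nuclear members were lower and 1 higher, against 7.03% and 10.5% of all genes. DESeq2 called 12 lower and one fit of all 5 groups 20. All 5 d10 libraries lay below all 3 d6 libraries for 27 of the 87 nuclear members (31.0%), against 14.4% of all genes, and above them for none (14.1% of all genes). The 1 that rose was Ndufa4l2, which went from 7.18, 10.1 and 7.35 normalized CPM at d6 to 13.2, 15.8, 11.3, 9.77 and 14.9 at d10 (log2 fold change 0.69 ± 0.19, adjusted p = 0.0368). Against d10 replicates 1 to 3 alone its log2 fold change was 0.73, and against replicates 4 and 5 alone it was 0.60 and not called (adjusted p = 0.0571). Of the mitochondrial members none of 12 was called, none had an unadjusted p below 0.05 and DESeq2 called none, with a median of -0.57, while replicates 4 and 5 alone gave 11 lower. The 6 nuclear members that fell were Ndufa4 (-0.61 ± 0.13), Ndufaf6, Ndufv2, Ndufb5, Cox7a2 and Ndufs4. Ndufa4 read 121, 110.2 and 114 at d6 and at most 87.4 at d10, and stayed called with either part of d10 (-0.68 and -0.52). So the 2 related genes moved in opposite directions: per length, Ndufa4l2 made up 8.28% ± 1.83 (SD, n = 3) of their sum at d6 and 18.1% ± 2.32 (n = 5) at d10. Leaving out d6 replicate 1 left no call among the 6, and the parts of d10 gave 3 higher and 16 lower nuclear members (replicates 1 to 3; 15.2% and 11.8% of all genes) or 10 and 37 (replicates 4 and 5; 24.1% and 23.0%).

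From d10 to d14, 33 of 87 nuclear members were lower and none higher, against 9.87% and 9.8% of all genes, with a median log2 fold change of -0.42 beside -0.04 over all genes (54 in either direction at an unadjusted p below 0.05, and 45 lower and none higher by DESeq2). Complex I gave 18 of the 33, complex IV 8, complex III 3 and complex V 2. Ndufb10 read 78.2, 71, 69.3, 55.6 and 59.4 normalized CPM at d10 and at most 38.1 at d14, a log2 fold change of -0.97 ± 0.13 (adjusted p = 0.00541). Ndufa13, with 30% of its exon bases shared with another gene, followed with -0.92 ± 0.14, and Ndufb3 with -0.90 ± 0.18. Ndufa12 had -0.95 ± 0.23 over all 5 libraries. It was called with either part of d10, at -1.22 against replicates 1 to 3 and -0.43 against replicates 4 and 5. Its d10 level was 81.7, 67, 76.2, 41.5 and 44.1. Ndufa4l2 fell by 0.78 ± 0.24 (adjusted p = 0.0466), but against replicates 4 and 5 alone its log2 fold change of -0.72 did not pass the test (adjusted p = 0.117). Cox4i2, at 4.56 to 6.32 normalized CPM at d10 and 2.82 to 3.33 at d14, fell by 0.79 ± 0.17 and was called with either part of d10. Sdhb fell by 0.61 ± 0.11.

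Both parts of d10 gave the nuclear fall: 43 members were lower against replicates 1 to 3 (17.2% of all genes) and 52 against replicates 4 and 5 (17.2%). None was higher with either, against 16.9% and 16.0% of all genes. For the mitochondrial members, whose own counts set the parts apart, the direction turned with the part. Over all 5 libraries none of the 12 was called (1 at an unadjusted p below 0.05, and none by DESeq2). Against replicates 1 to 3, 6 were lower, and against replicates 4 and 5, 7 of the 11 tested were higher (16.0% of all genes) and none lower. mt-Nd1 had a log2 fold change of -0.99 (adjusted p = 0.0041) in the first fit and 0.37 (adjusted p = 0.0844) in the second. The count over all 5 libraries also moved with single libraries: 7 nuclear members were lower without d14 replicate 2, 14 without d14 replicate 3, 17 without d14 replicate 1, 19 and 20 without d10 replicates 2 and 1, and 46 without d10 replicate 3.

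The 2 parts of the d10 group also differed from each other in the mitochondrial members. In a comparison chosen after seeing the data, replicates 4 and 5 were set against 1 to 3 of the same label. The parts had been told apart by the share of mt-Co1 among these same counts. The mitochondrial calls therefore restate the split and are no support for it. Of 12 mitochondrial members 10 were lower, all 10 by more than 2-fold. Among all genes 12.9% were lower, 6.08% lower by over 2-fold and 12.4% higher. mt-Atp8 read 411, 274 and 325 normalized CPM in replicates 1 to 3 and 18 and 25.5 in replicates 4 and 5. Its log2 fold change was -3.96 ± 0.24. mt-Nd1 stood at -1.39, mt-Nd2 at -1.48 and mt-Cytb at -1.19, while mt-Co1 at -0.14 and mt-Nd6 at -0.65 did not pass the test. Of the nuclear members 15 were lower and 8 higher, with a median of 0.01. The 13 genes held 1.19% to 1.72% of counts in replicates 1 to 3 and 0.771% and 0.815% in replicates 4 and 5.

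**Figure D3:**
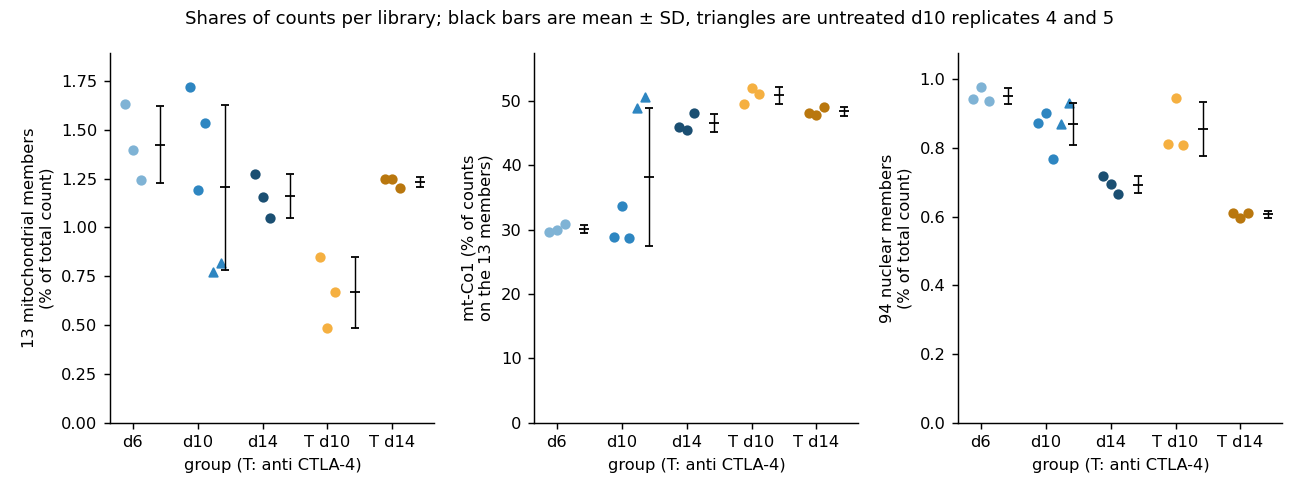
Each point is 1 library, by group on the horizontal axis (T, anti CTLA-4), and the vertical axes give, from left to right, the percent of all counts on the 13 mitochondrial members, the percent of those counts on mt-Co1, and the percent of all counts on the 94 nuclear members; black bars are mean ± SD. Triangles, untreated d10 replicates 4 and 5, lie with the treated d10 libraries in the left and middle panels, and the nuclear share is lowest in both d14 groups.

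Anti CTLA-4 treatment at d14 was compared with untreated tumors of the same day, where all 6 libraries had a like share of mt-Co1 among the mitochondrial counts (45.5% to 49.1%). Treated tumors had 31 of 87 nuclear members lower and none higher, against 14.8% and 17.7% of all genes, with a median log2 fold change of -0.21 beside 0.0 over all genes. At an unadjusted p below 0.05 there were 48 in either direction, and DESeq2 called 35 lower and 1 higher. Complex V gave 9 of 16, complex IV 7 of 17, complex I 12 of 35 and complex III 2 of 7.

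Among the nuclear members Ndufb9 had the largest called fall, -0.82 ± 0.11 (adjusted p = 0.00495), from 28.4, 28.5 and 22.4 normalized CPM untreated to 14.8, 13.8 and 15.1 treated, with 19.5% of its exon bases shared with another gene. Ndufa5 fell from 34.6, 32.1 and 27 to 21.9, 20.3 and 21.5 (-0.52 ± 0.10, adjusted p = 0.0105), and Ndufa4 from 70, 67 and 59.8 to 44.2, 41.9 and 49 (-0.51 ± 0.09, adjusted p = 0.008). In each of the 3, which were named for large fold changes, the treated libraries lay wholly below the untreated ones. This held for 59 of the 87 nuclear members (67.8%) and for 27.7% of all genes. Wholly above lay 3 nuclear members (3.45%) and 24.2% of all genes. Atp5o had -0.76 with the overlap noted above. Ndufa4l2 read 10.6, 6 and 6.14 untreated and 17.7, 14.3 and 9.39 treated, and missed the threshold with edgeR (0.90 ± 0.30, adjusted p = 0.0504), but it was the 1 nuclear member that DESeq2 called higher (adjusted p = 0.00533). Sdhb, at -0.02 ± 0.08, and Cox6a1, at -0.01 ± 0.07, had values close to 0.

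Among the mitochondrial members 4 of 12 were lower in treated d14 tumors and none higher. mt-Atp8 read 226, 218 and 97.3 normalized CPM untreated and 72.2, 59.4 and 63.3 treated (-1.44 ± 0.29, adjusted p = 0.0109). Of its exon bases 21.1% also belong to mt-Atp6, and its counterpart on chromosome 1 was not compared. The other 3, mt-Co3 (-2.43), mt-Atp6 (-2.11) and mt-Co2 (-1.07), are genes with a near-complete nuclear copy and at most 2.75 CPM in these libraries, and the summed nuclear copies were also lower in the treated libraries, as given above. The well-covered genes did not pass the test: mt-Nd1 0.14 ± 0.12, mt-Co1 0.14 ± 0.09, mt-Cytb 0.03 ± 0.10 and mt-Nd5 0.08 ± 0.07. The share of counts on the 13 genes was 1.16% ± 0.113 (SD, n = 3) untreated and 1.23% ± 0.0271 treated.

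Other cell types moved with treatment at d14. Macrophage markers summed to 544 to 984 CPM untreated and 1569 to 1952 treated, T cell markers to 103 to 189 and 271 to 307, fibroblast markers to 1636 to 2944 and 3704 to 5653, mesothelioma and mesothelium markers to 2765 to 2833 and 1878 to 2096, and cycling cell markers to 1597 to 1640.1 and 1057 to 1225. The 8 pancreas acinar markers summed to 3810.0 and 1279 CPM in treated replicates 1 and 3 and to 4.16 in replicate 2. The part of these shifts was not tested. The nuclear count was 10 lower without treated replicate 1, 5 without replicate 2 and 10 without replicate 3, and 10, 20 and 34 without untreated replicates 1, 2 and 3.

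**Figure D4:**
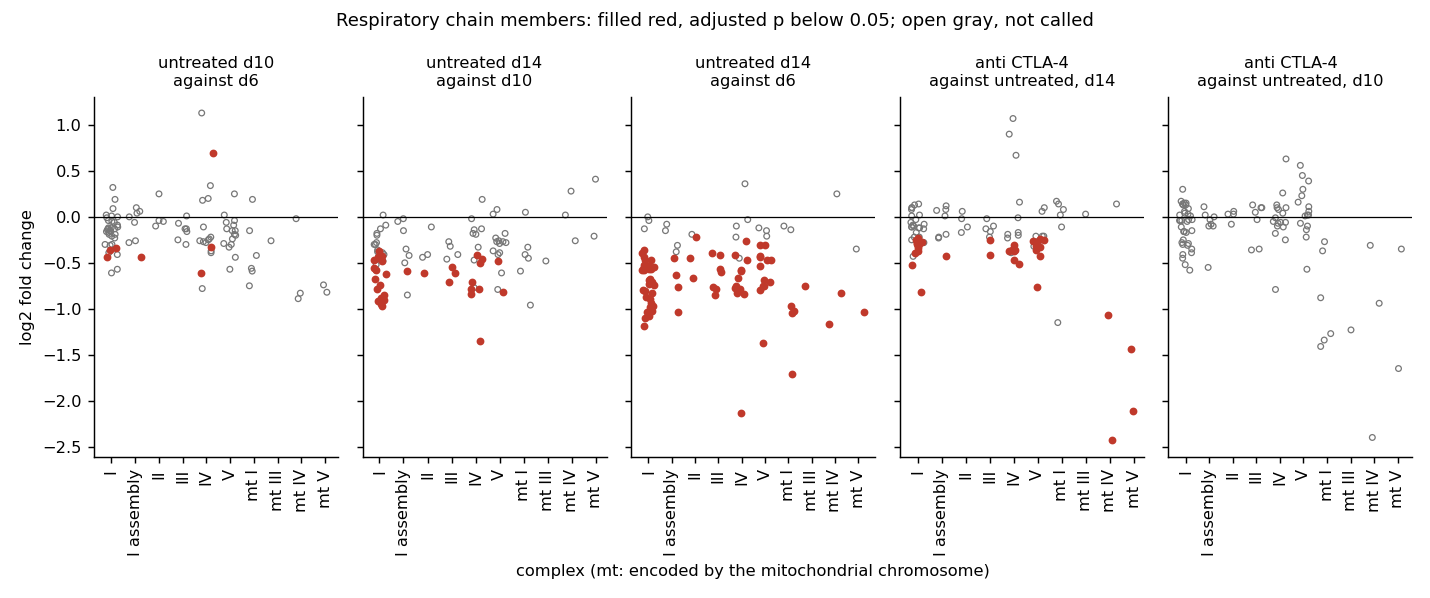
Log2 fold change (vertical axis) of each tested member in 5 comparisons, by complex on the horizontal axis (mt, encoded on the mitochondrial chromosome); filled red points are at an adjusted p below 0.05. Red points lie below 0 in the 2 comparisons with untreated d14 and in the treated d14 panel, Ndufa4l2 from d6 to d10 is the only one above 0, and the treated d10 panel has none.

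At d10, treated tumors against all 5 untreated ones gave no call among the nuclear or mitochondrial members, where 0.0174% of all genes were higher and 0.0% lower. At an unadjusted p below 0.05 there were 7 nuclear and 5 mitochondrial members, and DESeq2 called 4 mitochondrial members lower. All 12 tested mitochondrial members had a negative log2 fold change, with a median of -1.09, and mt-Nd1 stood at -1.41 ± 0.40 (adjusted p = 0.247). This value depended on the part of d10: the median was -1.58 with 8 called against replicates 1 to 3 (14.7% of all genes lower) and 0.02 with none called against replicates 4 and 5 (0.234% lower). mt-Nd1 read 1030.2, 610.3 and 815 in the treated libraries, 1119 and 1091 in untreated replicates 4 and 5, and 2269 to 3516 in replicates 1 to 3.

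The treatment effect at d14 minus that at d10 was tested in one fit of 4 groups. It was below 0 for 7 and above 0 for 1 of 87 nuclear members, against 5.85% and 11.9% of all genes, and above 0 for 1 mitochondrial member. Cox7c, a small structural subunit of complex IV, had the largest negative difference, -1.01 ± 0.30 (adjusted p = 0.0321): it read 56.9, 70 and 55.6 in treated d10 tumors and 27.5, 31 and 30 in treated d14 tumors, with 21.5 to 48.4 in untreated d10 and 36.7 to 42.7 in untreated d14 tumors. Cox7c shares 19.6% of its 75-base windows with transcripts elsewhere. With d10 replicates 1 to 3 alone the nuclear counts were 19 below and 9 above 0 (17.3% and 18.4% of all genes), and with replicates 4 and 5 alone 15 and none (10.8% and 14.2%). Atp5g1, a gene of the c ring of the ATP synthase, had -0.83 ± 0.20, Atp5l -0.65 ± 0.14 and Ndufa4 -0.62 ± 0.17. These 4 were called with either part of d10, whereas mt-Nd1 (1.54) and Cox6a2 (1.44) were called against replicates 1 to 3 and not against replicates 4 and 5 (adjusted p = 0.109 and 0.0554).

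**Figure D5:**
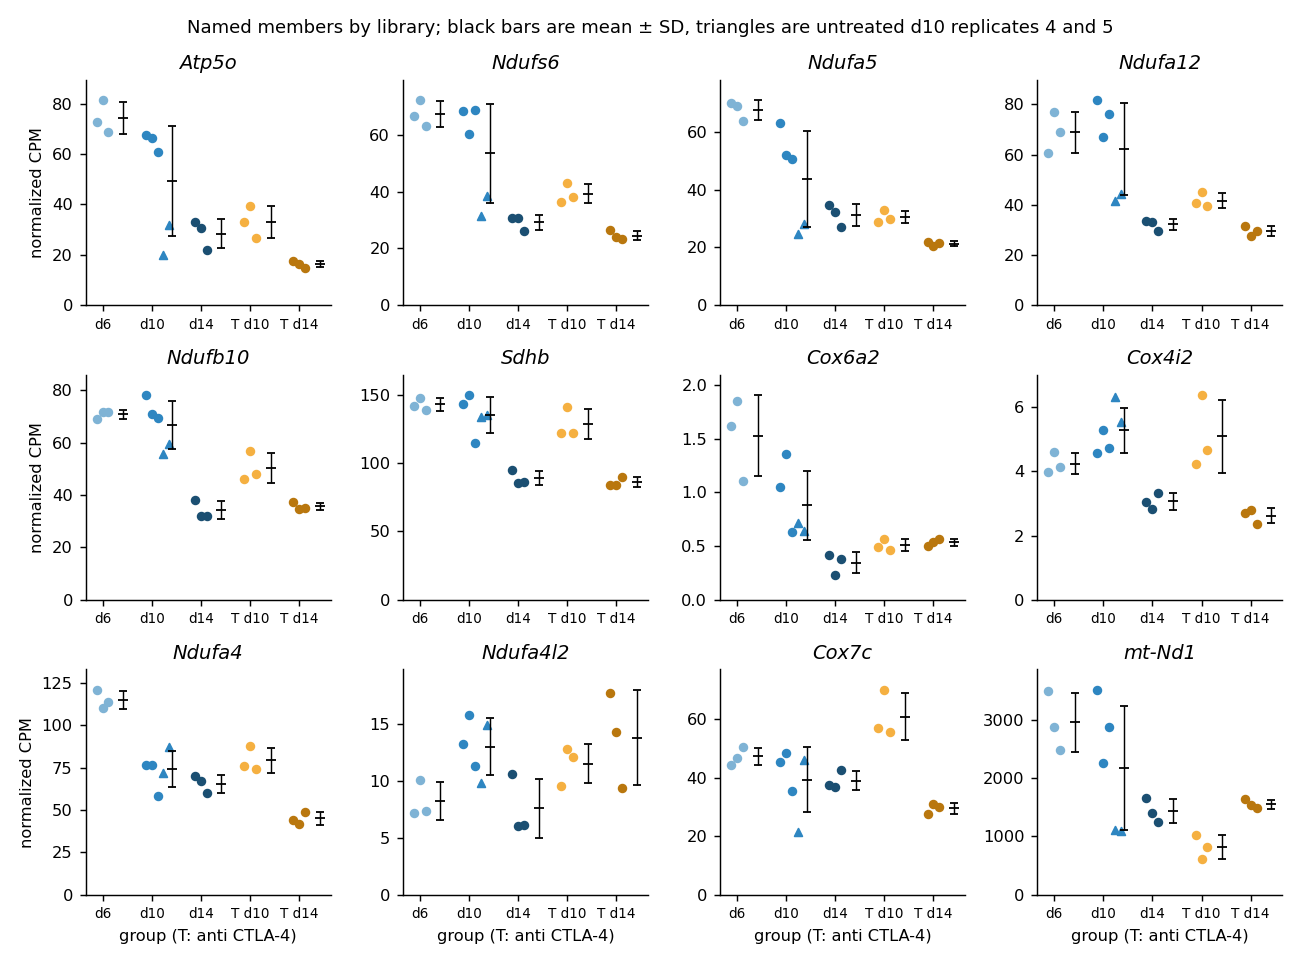
Normalized CPM (vertical axis, from 0) of 12 named members in each library by group (T, anti CTLA-4); black bars are mean ± SD and triangles are untreated d10 replicates 4 and 5. Ndufs6 and Ndufa5 show d10 triangles near the d14 level and d10 circles near the d6 level, and Ndufa12 shows triangles between these levels. Ndufb10 and Sdhb show all d10 points above d14, and Ndufa4l2 rises at d10 where Ndufa4 falls.

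Genes that make, assemble or feed the chain were counted in lists fixed for this work, none of them members. From d6 to d14 the mitochondrial ribosomal proteins, which translate the mitochondrial members, were lower in 67 of 75 tested with a median log2 fold change of -0.65, led by Mrpl41 (-1.37) and Mrpl32 (-1.36). Factors for biogenesis and mitochondrial DNA expression were lower in 14 of 29 and higher in 3 (median -0.35), with the RNA exonuclease Pnpt1 at -1.24 and Top1mt at -0.75. The TCA cycle and pyruvate entry list was lower in 13 of 19 (median -0.34), with the pyruvate carrier subunit Mpc1 at -0.89 and Sucla2 at -0.66. Assembly factors outside the rule were lower in 15 of 37 and higher in 2, with Cox18 at -1.18 and Sco2, which delivers copper to complex IV, at -1.09. Electron carriers and quinone synthesis were lower in 8 of 20 and higher in 1, with Etfb at -1.03 and Coq7 at -1.02. In the glycolysis list 5 of 19 rows were higher and 4 lower, shares near the 25.5% and 26.0% of all genes, with a median of 0.12, led by Eno2 (1.33) and Aldoa (1.16), the latter being a symbol listed in 2 rows.

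In the other comparisons the shares differed between lists, and these differences were not tested. From d6 to d10, where 7.03% of all genes were lower, the lower calls were 18 of 75 for mitochondrial ribosomal proteins, 7 of 29 for biogenesis, 3 of 37 for assembly factors, 2 of 20 for electron carriers and 2 of 19 for the TCA cycle, and the lactate exporter Slc16a3 of the glycolysis list was higher (0.72). From d10 to d14, where 9.87% of all genes were lower, they were 32, 1, 5, 2 and 2. Esrra, a regulator of mitochondrial genes, stood at -0.67. Glycolysis had 2 of 19 lower, Slc16a3 at -1.31 and Gpi1 at -0.52, and 2 higher, Aldoa at 0.93 and Eno2 at 0.88. In treated d14 tumors, where 14.8% of all genes were lower, they were 16 of 75 (1 higher), 11 of 29, 5 of 37 (1 higher), 4 of 20 (1 higher) and 8 of 19, and glycolysis had 7 of 19 lower, Gapdh at -1.21 among them, and 1 higher, Slc16a3 at 1.27. At d10 the medians of the 6 lists under treatment lay between -0.1 and 0.17.

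Across the 17 libraries the genes outside the rule whose log2 normalized CPM correlated best with the mean of the nuclear members were Naa38, Rbx1 and Tomm5, with Pearson's r of 0.989, 0.986 and 0.984 among 9462 protein coding genes with a mean of at least 10 CPM. The libraries share days, treatment and library kind, so these values only describe the resemblance.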

How the data were processed

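RNA of 17 tumor samples was sequenced, and the authors aligned paired reads of 75 or 100 bases to mm10 with TopHat2 and kept uniquely mapped reads. The deposited values are raw HTSeq counts per Gencode vM21 gene, with total counts from 46371577 to 96759833 per library. Whether counting used strand is not given in the sources used here, so overlapping genes cannot be told apart. Samples were grouped by the labels. Counts were tested with edgeR 4.0.16 (quasi-likelihood, filterByExpr, TMM, only the groups compared, Benjamini-Hochberg over all genes tested) in R 4.3.3. Calls are at an adjusted p below 0.05, and normalized CPM uses TMM over all 17 libraries. DESeq2 1.42.0, other filters and scalings, left-out libraries, a replicate block and both parts of the untreated d10 group were alternatives. Same-numbered samples did not correlate above 0.1 in every pair (-0.301 to 0.177), so numbers were not taken as pairs.

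Members, lists and tests were chosen with earlier results of these data known. Named genes were the mitochondrial members, up to 4 called nuclear members per direction and comparison with a mean of at least 10 CPM, tissue or oxygen dependent isoforms with their partners, complex II, the called genes of each pathway list (the 2 largest where over 5) and the 3 genes most alike. On simulated counts for d14 against d6 (17120 genes) edgeR recovered 68.4% of 2-fold and 23.2% of 1.5-fold changes, with 3.23% false calls. For treatment at d14 (18189 genes) it recovered 64.6% and 19.2%, with 8.79% false calls. Each simulation changed only 98 or 99 tested genes per fold, far fewer than were called in the real comparisons, so these rates need not hold for them.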

Additional observations from a re-analysis of the deposited data

Results flagged for a closer look

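The treatment effect at d14 minus that at d10 differed from 0 in edgeR's quasi-likelihood test for 9 members, 7 of 87 nuclear ones below 0, 1 nuclear above and 1 of 12 mitochondrial above, where 5.85% of all genes were below and 11.9% above. On the log2 scale the difference was -1.01 for Cox7c, -0.83 for Atp5g1, -0.65 for Atp5l, -0.62 for Ndufa4, -0.47 for Cox7a2, -0.45 for Atp5mpl and -0.44 for Ndufs4, and 1.44 for Cox6a2 and 1.54 for mt-Nd1. Among them Cox7a2, Ndufs4, Cox6a2 and mt-Nd1 were not called when untreated d10 replicates 4 and 5 alone stood for the d10 controls, with differences of -0.42, -0.37, 1.08 and 0.57. Dixon's test for a single outlying library, made 40 times within the 5 untreated d10 libraries, marked none, but it cannot mark 2 libraries that lie together, as replicates 4 and 5 did.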

How the results depend on the processing

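For the 5 comparisons with calls, the mitochondrial members and largest nuclear changes that were called were refitted under each alternative, and 485 of these values kept direction and side of the threshold, 76 no longer passed it and none turned direction. Members not called were left out of this tally, among them mt-Nd1 from d10 to d14, whose direction turned with the part of d10. The causes of the following shifts were not tested. From d6 to d10 (1 nuclear higher, 6 lower), lower counts were 12 by DESeq2, 2 with a filter of at least 1 count, 20 with all 5 groups in one fit, 16 with d10 replicates 1 to 3 and 37 with replicates 4 and 5, higher ones 3 and 10 with these parts, and 11 mitochondrial members were lower with replicates 4 and 5. Leaving out 1 library gave 0 to 1 higher and 0 to 6 lower. From d10 to d14 (33 nuclear lower), 54 were lower with all 5 groups and 52 with replicates 4 and 5, 1 was higher at 1 count, 6 mitochondrial members were lower with replicates 1 to 3 and 7 higher with 4 and 5, and left-out libraries gave 7 to 46 nuclear lower. From d6 to d14 (71 nuclear and 8 mitochondrial lower), all 5 groups gave 5 mitochondrial lower, 1 nuclear member was higher at 1 count, 1 mitochondrial member was higher at 1 count and without TMM, and left-out libraries gave 66 to 69 nuclear and 5 to 9 mitochondrial lower.

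With treatment at d14 (31 nuclear and 4 mitochondrial lower), all 5 groups gave 18 and 1, and 1 nuclear member was higher by DESeq2, without TMM, at 1 count, at 10 counts, with all 5 groups and with protein coding genes only. Left-out libraries gave 0 to 1 higher, 5 to 34 lower and 2 to 4 mitochondrial lower. At d10 (no calls), DESeq2 gave 4 mitochondrial lower, and replicates 1 to 3 gave 8 nuclear higher, 17 nuclear lower and 8 mitochondrial lower. For the difference of treatment effects (1 nuclear above 0, 7 below, 1 mitochondrial above), nuclear members above 0 were 2 by DESeq2, at 10 counts and with protein coding genes only, 3 without TMM and with all 5 groups, 0 at 1 count, 9 with replicates 1 to 3 and 0 with 4 and 5. Those below were 19 and 15 with these parts. Mitochondrial members above were 3 by DESeq2, 2 at 1 count and with all 5 groups, 5 with replicates 1 to 3 and 0 with 4 and 5, where 5 were below. Left-out libraries gave 0 to 4 nuclear above, 2 to 8 below and 0 to 4 mitochondrial above.

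The replicate number as a block, with numbers that do not pair the samples, gave 2 nuclear higher and 11 lower from d6 to d10, 5 mitochondrial lower from d10 to d14, 1 mitochondrial higher from d6 to d14, 1 nuclear higher and 17 lower with treatment at d14, 13 higher, 21 lower and 10 mitochondrial lower with treatment at d10, and 8 nuclear above, 20 below and 7 mitochondrial above 0 for the difference. Every sample correlated best with its own number only between d6 and d14.

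The share of counts on the 13 mitochondrial members changed by -0.264 percentage points from d6 to d14, by -0.483 over all genes of that chromosome, and by -0.356 to -0.16 with left-out libraries; between treated and untreated d10 the left-out range was -0.647 to -0.41. The mean log2 level from d6 to d14, with left-out libraries, lay between -0.6 and -0.47 for mitochondrial complex I, -0.86 and -0.68 for III, -0.48 and -0.23 for IV, -0.84 and -0.42 for V and -0.62 and -0.43 for all mitochondrial members. For nuclear members these ranges were -0.68 to -0.62 for complex I, -0.48 to -0.43 for its assembly factors, -0.41 to -0.36 for II, -0.58 to -0.52 for III, -0.47 to -0.41 for IV, -0.49 to -0.44 for V and -0.56 to -0.51 for all. Medians over members in place of means gave -0.99 and -0.65 for mitochondrial complexes I and IV and -1.05 for all mitochondrial members, and -0.79 for nuclear complex I, -0.57 for assembly factors, -0.48 for II, -0.78 for III, -0.69 for IV and -0.72 for all nuclear members. The 5 mitochondrial genes with near-complete nuclear copies reached 257 counts at most, which limits the precision of their values; the cause of these low counts was not tested.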
